A study of Mus musculus with 2 samples.

Results

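Islet endothelial cells were chosen by 7 markers: Plvap, Pecam1, Kdr, Flt1, Esm1, Cdh5 and Egfl7. A barcode was a member if its gene number lay between 200 and 6000, its unique molecular identifiers (UMIs) stayed below 60000 with under 10% of them mitochondrial, the 5 hormone genes Ins1, Ins2, Gcg, Sst and Ppy took under 15% of UMIs, and it held at least 3 of the 7 markers with 5 or more UMIs in sum. This rule selected 502 of 10538 barcodes, 272 in the virgin library and 230 in the multipara library. Virgin members held 1509061 UMIs and multipara members 1572497, with medians of 4378 and 5169.5 UMIs per cell. Both libraries contained 7 barcode sequences in common, and 0 of these belonged to a member.

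They were examined in single-cell libraries of pancreatic islets from wild-type C57BL/6J female mice. The multipara mice entered the protocol at 9 weeks of age and went through 3 consecutive pregnancies, and their islets were taken 3 weeks after the last delivery. The controls were age-matched virgin mice, which makes pregnancy history the contrast, and the exact age at collection is not given in the labels. Each group was a single library, so the comparison has no replicate check and no test. How many mice were pooled is not stated in the labels. All intervals are 95% intervals for counting error only, and a difference between groups cannot be told apart from a difference between 2 preparations.

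Endothelial cells line the capillaries that run through every pancreatic islet. Islet capillaries are fenestrated, with small diaphragm-covered pores through which hormones enter the blood, and the cells are kept in this state by vascular endothelial growth factor (VEGF) released by β cells. Capillaries drain into venules, whose endothelial cells carry the adhesion molecules used by leukocytes, and pericytes wrap the outside of the vessels.

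Members made up 6.19% of the 4391 barcodes kept by the gene, UMI and mitochondrial limits in the virgin library (exact binomial interval 5.50 to 6.95) and 6.82% of 3374 in the multipara library (5.99 to 7.72). These intervals overlapped. Among the barcodes under the hormone limit, members made up 28.6% of 952 (25.7 to 31.6) and 38.3% of 601 (34.4 to 42.3), which did not overlap. This second share also depends on how many other hormone-poor cells each library held.

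The 7 markers chose the cells, so their levels are given as a description. Plvap, which forms the diaphragm of the fenestrae, was at 4714 UMIs per 1e+06 UMIs of the members (CPM) in virgin and 5213 in multipara members, against 4.41 and 3.38 in the other kept barcodes. Esm1, a secreted proteoglycan induced by VEGF, was at 4409 and 5485 CPM, and Flt1, a VEGF receptor, at 3592 and 4052. Kdr, the main signalling VEGF receptor, was at 2555 and 2816 CPM, and Egfl7, a secreted vascular factor, at 1990 and 2258. The junction proteins Pecam1 (1035 and 1016 CPM) and Cdh5, or VE-cadherin (606 and 613), were the lowest and the closest between libraries. All 7 markers were found in 179 of 272 virgin and 191 of 230 multipara members. The marker edges of the rule held few cells. Exactly 3 markers were found in 3 virgin and 2 multipara members, 6 barcodes in each library fell just short with exactly 2 markers, and the median member held 82 marker UMIs in virgin and 116.5 in multipara islets. The hormone limit left out further barcodes that passed the markers. At 15 to 20% hormone UMIs these were 0 virgin and 6 multipara barcodes, and at 20% or more 12 in each library.

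Col1a1, a fibroblast collagen, and Cd3e, a T cell receptor subunit, were at 0 UMIs in both sets of members. Other genes of their lists were present. The 8 fibroblast markers summed to 25 UMIs in virgin and 62 in multipara members, and the 10 lymphocyte markers to 19 and 5. Insulin transcripts were found in every member, at 7047 and 13680 CPM of Ins2, against 283851 and 300578 CPM in barcodes with 15% or more hormone UMIs. The median hormone share of a member was 1.28% in virgin and 2.45% in multipara islets. Macrophage-marked barcodes outside the members and under the hormone limit carried 6488 and 17766 CPM of Ins2. The part of free RNA in the members' insulin counts was not tested.

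**Figure D1:**
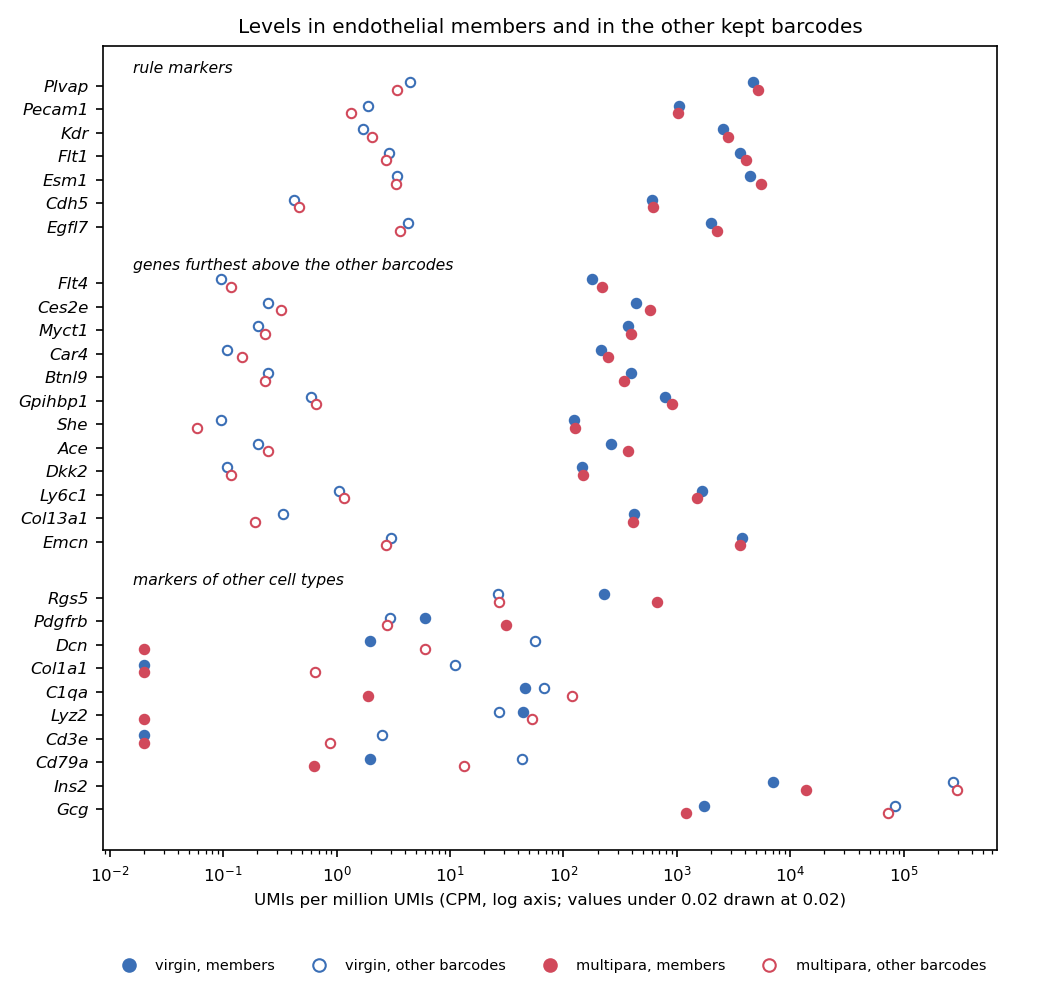
Levels in CPM (log axis) of the 7 rule markers, of 12 genes furthest above the other barcodes and of 10 markers of other cell types. Filled points are endothelial members and open points all other kept barcodes, blue for the virgin and red for the multipara library. The members lie far to the right of the other barcodes for every endothelial gene shown, and to the left of them for the other markers except Rgs5 and Pdgfrb in both libraries and Lyz2 in the virgin library (levels of 0 are drawn at the left edge).

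The genes furthest above the rest of the islet included several known capillary genes. Leaving out the rule's own genes and mitochondrial genes, 3301 genes averaged 50 CPM or more over both sets of members, and 1218 of these (36.9%) were at least 4-fold above the other kept barcodes in both libraries. The list of other endothelial markers had 27 genes at that level, of which 26 were 4-fold above. Since the cells were selected on genes of the same kind, nothing is read from that count.

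Flt4, the receptor for VEGF-C, led the order. It was at 177 CPM in virgin and 218 CPM in multipara members against 0.0956 and 0.117 CPM elsewhere, a ratio of 1850 and 1870. Next came the carboxylesterase Ces2e (438 and 576 CPM), Myct1 (370 and 394 CPM) and the capillary carbonic anhydrase Car4 (213 and 245 CPM). Gpihbp1, which carries lipoprotein lipase to the capillary lumen, was at 791 and 906 CPM, and Ace, the angiotensin-converting enzyme, at 262 and 370 CPM. Rgcc, also a capillary gene, was at 1763 and 1682 CPM. The genes whose spread over cells was most like that of the rule markers, by the share of members with a UMI less the share of other barcodes in the library where this was lower, were Emcn, Ly6c1, Eng, Sparc and Plpp3. Emcn, a sialomucin of capillary and venous endothelium, was detected in 97.8% of virgin and 98.7% of multipara members and in 1.82% and 2.32% of the others.

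The promoter of Emcn is printed because it was the only one of the 20 leading genes whose RefSeq window held either of the searched 8-base words ACAGGAAG and ACCGGAAG, on either strand. These are strong binding words of ETS factors, the family of Erg, Fli1 and Ets1 that acts in all endothelium. The window runs from 250 bases before to 50 bases after the gene start, at chr3:137340828-137341127 on the plus strand of GRCm38.p6. The capitals mark ACAGGAAG on the opposite strand, at position -174 from the gene start.
Emcn: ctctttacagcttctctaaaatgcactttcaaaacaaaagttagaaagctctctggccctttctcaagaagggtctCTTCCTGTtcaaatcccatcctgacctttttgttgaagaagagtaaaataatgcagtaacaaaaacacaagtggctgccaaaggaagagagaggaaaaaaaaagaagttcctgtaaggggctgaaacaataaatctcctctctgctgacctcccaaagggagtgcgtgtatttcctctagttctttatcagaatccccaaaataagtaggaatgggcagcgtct
Of the 20 leading genes, 17 had a window in the table, and 1 of these (5.88%) held a word. The share was 6.53% over all 27025 genes with a window and 9.41% over the 2624 of them at 50 CPM or more in members. A match is a description of the letters and not of a bound site.

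Between virgin and multipara members most of the transcriptome lay close together. Of the 3301 genes, 55 (1.67%) were at least 1.5-fold higher and 52 (1.58%) at least 1.5-fold lower in multipara members, the median log2 ratio of multipara over virgin was -0.01, and the 5th and 95th percentiles were -0.39 and 0.41. At 2-fold there were 11 higher and 21 lower genes. The higher genes were mostly spread over many cells and the lower ones often were not. In 18 of the 52 lower genes 3 virgin cells held at least 50% of the virgin UMIs, against 25 of all 3301 genes, and the same held in the multipara library for 3 of the 55 higher genes, against 14 of all. Without each gene's 3 highest cells in either library, 49 of the 55 higher and 34 of the 52 lower genes were still past 1.5-fold.

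**Figure D2:**
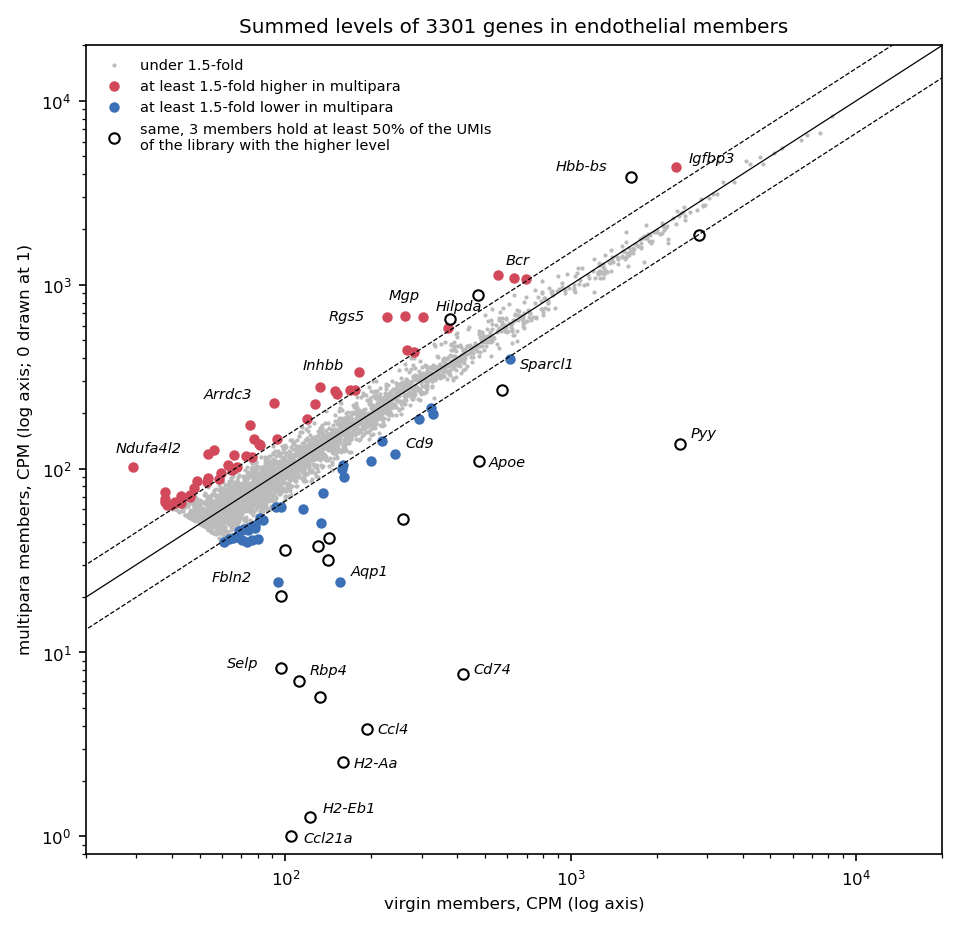
Summed level of each of the 3301 genes in virgin (x) and multipara members (y), in CPM on log axes, with the diagonal and the 1.5-fold lines. Red points are the genes at least 1.5-fold higher and blue points those at least 1.5-fold lower in multipara members, and open circles are those of which 3 cells hold at least 50% of the UMIs in the library with the higher level. Most open circles lie in the lower right, from Pyy to the class II genes, with the haemoglobins open among the higher genes.

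The most abundant gene of the higher group was Igfbp3, which encodes a secreted protein that binds insulin-like growth factors. It was at 2339 CPM in virgin and 4376 CPM in multipara members, a log2 ratio of 0.90 (0.84 to 0.96). The median member held 6 UMIs in virgin and 17 in multipara islets. After every cell was thinned to 1500 UMIs, Igfbp3 was found in 72.1% of 247 virgin and 89.4% of 217 multipara members, and before thinning in 83.8% and 94.3%. In hormone-rich barcodes, which are endocrine cells and not endothelium, the thinned shares were 0.0598% and 0.0769%. Their median depths before thinning were 21930 and 22867 UMIs, deeper than the members' 4378 and 5169.5.

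Related genes of the insulin-like growth factor system stayed closer. Igfbp7, the most abundant of the family, was at 8255 and 8277 CPM (log2 ratio 0.00). Igfbp5 was at 181 and 176 CPM. Insr, the insulin receptor, was at 202 and 301 CPM (0.57) and Igfbp4 at 139 and 205 CPM (0.56), both just under the fold limit. Igfbp3 was the only one of the 8 genes of this list at 50 CPM or more that passed 1.5-fold, and the median of the list was 0.12.

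A second secreted product was higher. Inhbb, the activin and inhibin βB subunit, was at 132 CPM in virgin and 278 CPM in multipara members, a log2 ratio of 1.08 (0.83 to 1.32). After thinning it was found in 16.2% of virgin and 31.3% of multipara members, and in 0% and 0.0769% of hormone-rich cells. Ctgf, a matricellular protein, was at 74.9 and 172 CPM (1.20), and 118 of its 271 multipara UMIs lay in 14 of 16 cells with pericyte markers. In members without any of 6 marker sets (venous, lymphatic, pericyte, fibroblast, macrophage, lymphocyte) its ratio was 0.88. Apln, the ligand apelin, went the other way, from 80.2 to 41.3 CPM (-0.96), with 45.5% of its virgin UMIs in 3 cells. Of 9 factors at 50 CPM or more that act on other islet cells these were the 2 higher and 1 lower, and the others, among them Pdgfb, Kitl and Dkk2, lay between -0.25 and 0.48.

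Arrdc3, an arrestin-domain adaptor, was detected in 62 virgin and 116 multipara members, at 91.4 and 227 CPM (1.31, 1.02 to 1.61), and its share of members with a UMI after thinning was 10.1% and 22.6%. The share in hormone-rich cells was 3.83% and 4.23%. Hilpda, a lipid droplet protein that restrains fat breakdown, was at 303 and 668 CPM (1.14, 0.98 to 1.30), and Ddit4, an inhibitor of the growth kinase complex mTORC1, at 77.5 and 144 CPM (0.90). Bcr was at 555 and 1131 CPM (1.03, 0.91 to 1.15). Bcr was also at 620 and 1112 CPM in the pericyte-marked barcodes outside the members, but at 24.4 and 20.6 CPM in hormone-rich barcodes. Ddah1, which clears an inhibitor of nitric oxide synthesis, was at 53.7 and 120 CPM (1.16). Bcr and Ddit4, and below Apold1, Spry1, Cd9, Fbln2, Sparcl1, Tinagl1 and Chga, were named after their values were seen.

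Gja1, which encodes the gap junction protein connexin 43, was at 150 and 263 CPM (0.81) and was the only higher gene among 11 junction genes at 50 CPM or more. Nkx2-3, a homeobox factor of visceral endothelium, was at 267 and 443 CPM (0.73) and was the only one of 22 endothelial transcription factors at that level past 1.5-fold. Their median was -0.05. Cebpd, a stress-induced transcription factor, was at 182 and 334 CPM (0.88), and was the only one of 29 such genes of the dissociation response past the limit. Apold1, an endothelial early response gene, was at 634 and 1091 CPM (0.78), the chemokine receptor Cxcr4 at 53.0 and 84.6 CPM (0.67) and Spry1, an inhibitor of receptor kinase signalling, at 282 and 430 CPM (0.61).

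Of the 52 lower genes, 6 were also at least 1.5-fold lower in hormone-rich barcodes, and another 4 had no UMI in the multipara hormone-rich barcodes. Of the 55 higher genes, 3 were also at least 1.5-fold higher there, and 1 more had no UMI in the virgin hormone-rich barcodes. The 3 were the haemoglobins Hbb-bs, Hba-a1 and Hba-a2. The share of all 3301 genes past 1.5-fold in hormone-rich barcodes is not given here, so nothing is read from these counts. In the multipara library 87.9% of the members' Hbb-bs UMIs lay in 3 cells, and its log2 ratio in hormone-rich barcodes was 6.37, and in all other kept barcodes it was at 22.02 and 1217 CPM. The part of free red cell RNA in the members' values was not tested.

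**Figure D3:**
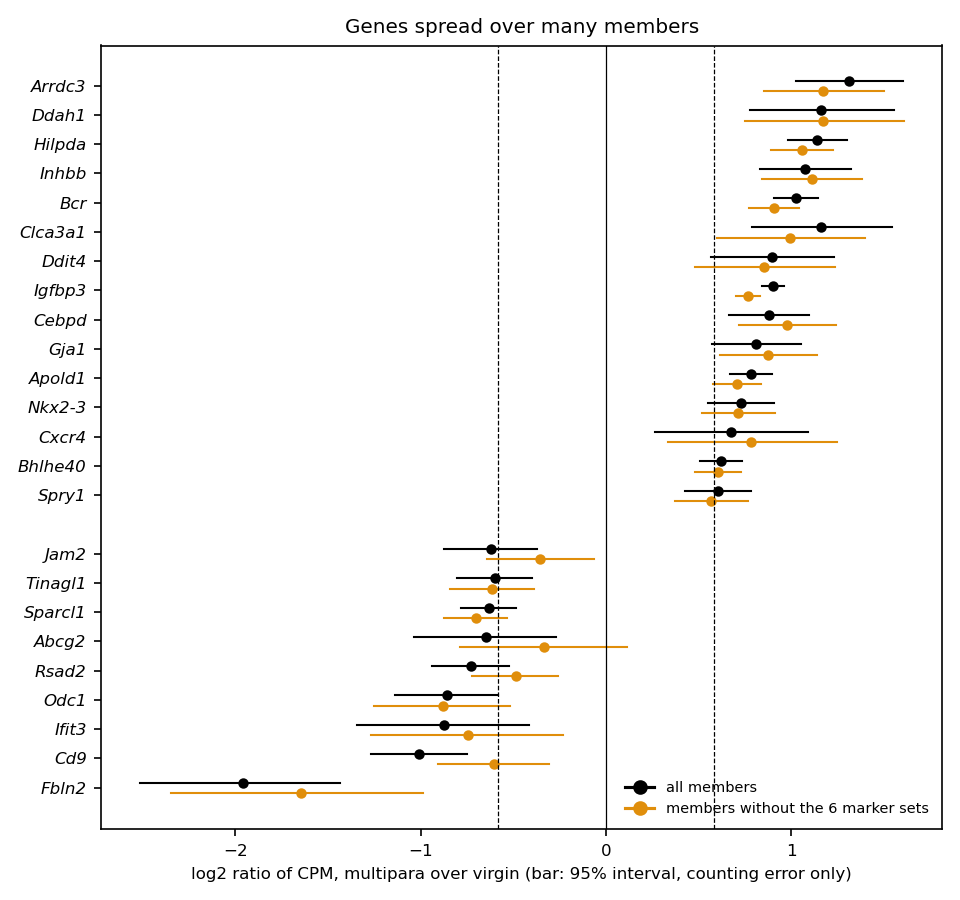
Log2 ratio of CPM, multipara over virgin, for named genes of which no 3 cells hold most of the UMIs, with dashed lines at 1.5-fold. Black points use all members and orange points only the members without any of 6 marker sets (venous, lymphatic, pericyte, fibroblast, macrophage, lymphocyte), and bars are 95% counting intervals. Without the marked members the higher genes drawn stay near or above the dashed line, whereas Jam2, Abcg2, Rsad2 and Cd9 lie closer to 0. The genes drawn are a selection. Without the marked members, 42 of all 55 higher and 39 of all 52 lower genes were still past 1.5-fold.

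The lower group contained the largest ratios, and most of these lay in few cells. Here and below a measured gene of a list is one at 50 CPM or more. All 4 measured class II antigen presentation genes, which load peptides for helper T cells, were lower. They reached 50 CPM, as a mean of both libraries, only through their virgin levels, so nothing is read from the count of 4. H2-Aa was at 159 CPM (240 UMIs) in virgin and 2.54 CPM (4 UMIs) in multipara members, a log2 ratio of -5.97 (-7.85 to -4.59). Cd74, the class II chaperone, was at 420 CPM (634 UMIs) and 7.63 CPM (12 UMIs), a ratio of -5.78. H2-Eb1 and H2-Ab1 had ratios of -6.58 and -4.53.

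Of the 240 virgin H2-Aa UMIs, 185 lay in 1 member that also carried the macrophage marker set, and 483 of the 634 Cd74 UMIs lay in 2 such members. No multipara member carried that set, which has C1qa and Lyz2 among its defining genes. Over all members the 9 macrophage markers summed to 243 CPM in the virgin and 19.1 CPM in the multipara library, with 2 of them at 0 in the multipara members. Class II transcripts were also found in other virgin cells. Venous-marked virgin cells without the macrophage set held 31 H2-Aa UMIs in 11 cells and 90 Cd74 UMIs in 11 cells, against 0 and 7 UMIs in multipara venous-marked cells. In members without any of the 6 marker sets the ratios were -1.68 for H2-Aa, on 12 and 4 UMIs, and -2.86 for Cd74, on 34 and 5 UMIs. Class I genes, which all nucleated cells express, were near 0, with a median of -0.11 over 13 genes and none past 1.5-fold.

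Of 12 venous genes, 10 were lower by any amount in multipara members, beside a median log2 ratio of -0.01 over all 3301 genes. Selp, Ackr1 and Lrg1 were each found in fewer than 20 cells of either library. Selp, or P-selectin, which captures rolling leukocytes, was at 146 UMIs in 9 virgin members and 13 UMIs in 1 multipara member (96.7 and 8.27 CPM, -3.55). Ackr1, the chemokine-binding receptor that marks venules, was at 48 UMIs in 7 cells and 5 UMIs in 1 cell. Vwf, the platelet-binding von Willebrand factor, was at 74 and 12 UMIs, Vcam1 at 36 and 3 UMIs and Lrg1 at 146 and 32 UMIs. All Selp and Ackr1 UMIs in both libraries lay in venous-marked members, which were defined by at least 3 genes of the venous list, these 2 included, and 5 or more UMIs. Aqp1, the water channel, was at 235 UMIs in 27 virgin members and 38 UMIs in 11 multipara members (-2.69), with 184 and 19 of these UMIs in venous-marked cells. Of 4 venous genes that reached 50 CPM, Selp and Lrg1 were lower by the fold limit, while Ephb4 (0.13) and Slco2a1 (-0.28) were not. Selp and Lrg1 reached 50 CPM, as a mean of both libraries, only through their virgin levels. The median of the 4 genes, which depends on that filter, was -1.27. For the venous list it was -1.50 under a mitochondrial limit of 5% and -2.53 with no CPM limit. With members thinned or at 100 CPM it was -0.28, with equal weights -0.38 and with no hormone limit -0.10. Without venous, lymphatic or other cell type sets it was 0.27. In members without any of the 6 marker sets, of which the venous set is one, Selp was at 0 UMIs in both libraries and Lrg1 at 5 and 1 UMIs, while Ephb4 was at 78.6 and 89.8 CPM and Slco2a1 at 110 and 139 CPM.

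Venous-marked cells were 21 of 272 virgin members (7.72%, 4.84 to 11.6) and 13 of 230 multipara members (5.65%, 3.04 to 9.47). The intervals overlapped. Of these cells, 3 virgin and 8 multipara cells also carried the pericyte marker set. Without them 18 were left in the virgin library (6.62%, 3.97 to 10.3) and 5 in the multipara library (2.17%, 0.710 to 5.0), a split chosen after the values were seen. These ranges overlapped too. The median depth of venous-marked cells was 8364 UMIs in virgin and 16496 in multipara islets, above the members' medians. Thinned to 1500 UMIs, 7 of 247 and 2 of 217 members met the venous rule, and those intervals overlapped. Fewer venular cells and less venular RNA per cell cannot be told apart from these sums.

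Ccl21a, a chemokine of lymphatic vessels that shares its symbol with another gene of the table, was at 158 UMIs in virgin members and 0 in multipara members, which is at least 54.9-fold lower when 3 UMIs stand in for 0 in the multipara members. Of these UMIs 155 lay in 1 lymphatic-marked cell, which also held all 20 UMIs of Mmrn1, another lymphatic gene. Lymphatic-marked members numbered 6 and 2, and each of them held Flt4, Prox1 and Maf. Flt4 was also found in 138 of all virgin and 147 of all multipara members. Lyve1, Mmrn1 and Reln were each found in 1 virgin member and were at 0 UMIs in multipara members. Beyond that 1 virgin cell, the marker set does not establish a lymphatic identity.

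**Figure D4:**
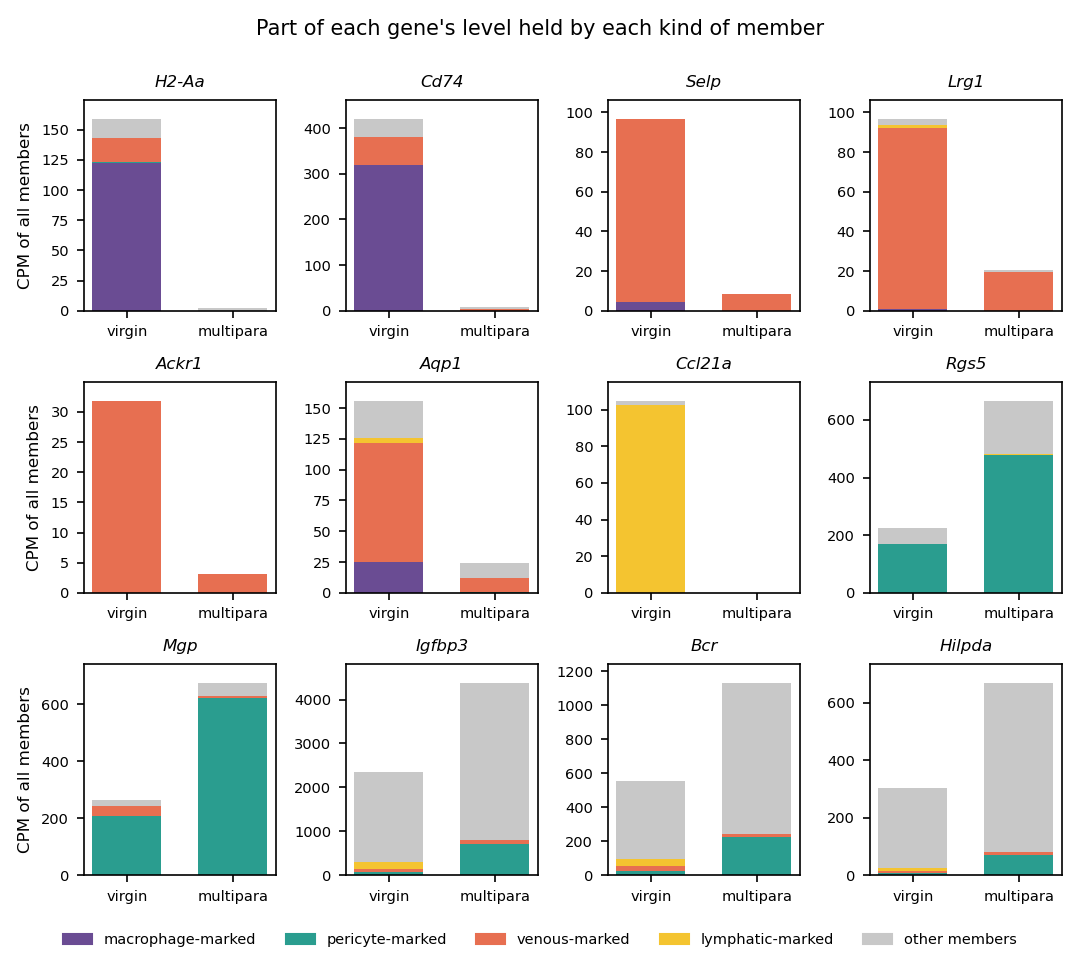
Level of 12 genes in all members (CPM, y axis from 0) of each library, divided by the kind of member that holds the UMIs. A cell with more than 1 marker set is placed with the first of macrophage, pericyte, venous and lymphatic. The class II genes lie mostly in macrophage-marked virgin cells, Selp, Lrg1 and Ackr1 in venous-marked cells, and Rgs5 and Mgp in pericyte-marked cells, whereas Igfbp3, Bcr and Hilpda lie mainly in the unmarked members of both libraries.

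Pericyte transcripts were higher in multipara members. Pericyte-marked cells were 4 of 272 virgin members (1.47%, 0.402 to 3.72) and 16 of 230 multipara members (6.96%, 4.03 to 11.1). After thinning they were 2 of 247 and 6 of 217, and those intervals overlapped. All 7 pericyte markers were higher in CPM and none was at 0, and they summed to 270 and 810 CPM. Only 1 of them, Rgs5, reached 50 CPM. Of the multipara UMIs, 48 of 49 for Pdgfrb, 62 of 65 for Notch3 and 36 of 37 for Higd1b lay in the pericyte-marked cells. These 7 genes define those cells, so nothing further is read from their number. Rgs5, which is abundant in pericytes, was at 342 and 1047 UMIs (1.55), with 754 of the multipara UMIs in the pericyte-marked cells. Rgs5 was also higher in members without any of the 6 marker sets, at 70.3 and 223 CPM. Ndufa4l2, a mitochondrial protein that is high in pericytes, was at 44 UMIs in 7 cells and 160 UMIs in 27 cells (1.80). Mgp, a matrix protein on the arterial list, was at 396 and 1059 UMIs (1.36), with 978 of the multipara UMIs in pericyte-marked members. Its ratio was 0.03 without members that carried markers of another cell type and 1.15, on 29 and 69 UMIs, without any of the 6 marker sets. Scrublet, which calls droplets with several cells by simulation, marked 5 virgin and 4 multipara members. All 16 pericyte-marked multipara members were left after its calls were removed. The median depth of pericyte-marked members was 17268.5 UMIs in virgin and 14531 in multipara islets, against 4378 and 5169.5 for all members. Whether these deeper barcodes held several cells was not tested further.

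The endocrine transcripts Pyy and Chga were in the lower group and lay mostly in a few virgin cells. Pyy, a hormone of islet cells, was at 2424 and 136 CPM (-4.15) with 85.6% of the virgin UMIs in 3 cells, and Chga, a granule protein, at 576 and 268 CPM (-1.10) with 65.4% in 3 cells. Under a hormone limit of 5% the ratio of Pyy was -0.14 and that of Chga 0.38.

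In 34 of the 52 lower genes no 3 virgin cells held 50% of the virgin UMIs, and the median log2 ratio of these 34 was -0.66. Cd9, a tetraspanin, was at 242 and 120 CPM (-1.01, -1.27 to -0.75) and was detected in 128 virgin and 91 multipara members. Fbln2, a matrix protein, was at 94.1 and 24.2 CPM (-1.96) in 44 and 12 cells, with 66 of 142 virgin UMIs in venous-marked cells. Sparcl1, a matricellular protein of quiescent vessels, was at 611 and 394 CPM (-0.63), Tinagl1, a basement membrane protein, at 324 and 214 CPM (-0.60) and Jam2, a junctional adhesion molecule, at 217 and 141 CPM (-0.62). The interferon-induced genes Rsad2 and Ifit3 had ratios of -0.73 and -0.88 and Gbp4 0.64, while the median of the 25 measured interferon genes was 0.03.

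The gene lists for islet capillary function had medians close to 0. The median log2 ratio was 0.10 for 9 genes of fenestrae and caveolae, 0.04 for 13 genes of the basement membrane, -0.07 for 7 capillary genes and 0.15 for 6 VEGF receptors and partners, and none of these genes passed 1.5-fold. Col4a1, a basement membrane collagen, was at 1557 and 1700 CPM. Fabp4, a fatty acid carrier, was at 1592 and 1259 CPM (-0.34). The Notch genes had a median of 0.21 over 9 genes, including Dll4 (280 and 366 CPM, 0.39), and the flow-responsive genes 0.17 over 7 genes, including Timp3 (3272 and 4656 CPM, 0.51). The 12 measured tip cell genes, which mark sprouting endothelium, had a median of 0.11. Igfbp3 and Cxcr4 were higher and Apln was lower, while Angpt2, an antagonist of the Tie2 receptor, was at 86.1 and 114 CPM (0.41).

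**Figure D5:**
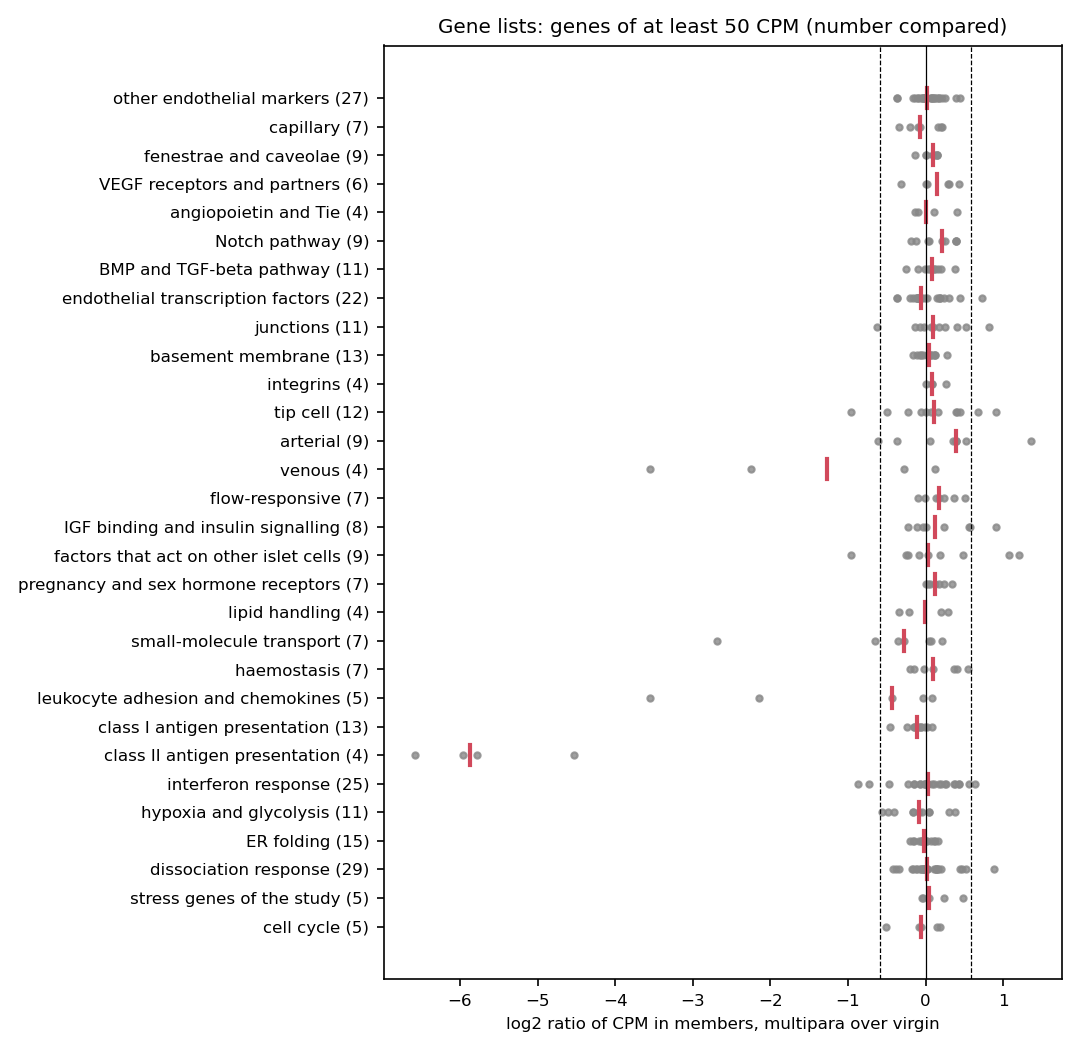
Log2 ratio of CPM in members, multipara over virgin, for the genes of 30 lists that reached 50 CPM. Each grey point is a gene, the red bar is the median of the list, the number of genes compared is in brackets, and dashed lines are at 1.5-fold. All medians lie within the dashed lines except those of class II antigen presentation, at -5.87, and the venous list, at -1.27. The venous median rests on 4 genes and was -0.28 with members thinned to 1500 UMIs. The class II genes, and Selp and Lrg1 of the venous list, reached a mean of 50 CPM only through the virgin library, so these 2 medians depend on that filter.

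Prlr, the receptor for prolactin and placental lactogen, was at 11 UMIs in virgin and 33 UMIs in multipara members. Before thinning, Prlr was found in 4.04% (2.04 to 7.12) of virgin and 13.5% (9.34 to 18.6) of multipara members, and these intervals did not overlap. After thinning, which left 5 virgin and 8 multipara members with a UMI, the shares were 2.02% (0.660 to 4.66) and 3.69% (1.60 to 7.13). Those intervals overlapped. In hormone-rich barcodes its thinned shares were 24.8% and 31.7%. Esr1, an oestrogen receptor, was at 1 and 2 UMIs in members and Pgr, the progesterone receptor, at 0 and 1 UMI. Of 19 such receptors 7 reached 50 CPM and none passed 1.5-fold, with a median of 0.12. The glucocorticoid receptor Nr3c1 was at 197 and 232 CPM (0.23).

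Cell cycle and stress lists were also close to 0. The 5 measured cell cycle genes had a median of -0.06. No member met the rule of at least 3 cell cycle genes and 5 UMIs, which allows up to 1.35% of virgin and 1.59% of multipara members. The rule used only part of the list and left out Pcna, the Mcm genes, Rrm2 and Tyms, so these limits do not cover every cycling cell. Mki67 was at 1 UMI in each set of members. The 5 measured stress genes named by the study had a median of 0.05, the 15 measured genes of protein folding in the endoplasmic reticulum -0.03, the 11 of hypoxia and glycolysis -0.09 and the 29 of the dissociation response 0.01.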

How the data were processed

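Islet cells were dissociated with trypsin and captured with 10x Chromium 3′ v3.1 chemistry. The deposited matrices hold raw UMI counts, not normalised, from the authors' run of Cell Ranger 3.1.0, and the submitters' processing notes name GRCm38 (mm10) and Seurat 3.0. The gene, UMI and mitochondrial limits were those of the study, and the hormone and marker limits were set here. UMIs of the members were summed per library and divided by the members' total (CPM). A ratio has an exact conditional binomial interval, a share an exact Clopper-Pearson interval, each at 95%. The limits were 50 CPM and 1.5-fold. Without replicates no p-value was computed, and the count models of edgeR 4.0.16 were used only for TMM scaling. Cells were thinned to 1500 UMIs, leaving out 25 virgin and 13 multipara members. Symbols in each gene list were matched by name, and gene locations to GENCODE M21 by identifier. The ratio code was tested on simulated data. Scrublet doublet calls were kept in the main values, and removing them was an alternative. Analysis used python 3.11.15, scipy 1.17.1 and scanpy 1.11.5. The members and gene lists were chosen with earlier results of these data known. Named genes were the rule markers, the 10 highest and 10 lowest ratios, the 20 genes furthest above other barcodes, the 5 most like the markers, and from each list those past 1.5-fold or the most abundant, with exceptions named in the text.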

Additional observations from a re-analysis of the deposited data

How the results depend on the processing

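Leaving out a library was not possible with 1 per group. No paired analysis was possible because the groups share only the number 1 and no result comes from a test. The share of kept barcodes that were members was 7.99% (virgin) and 7.86% (multipara) under a mitochondrial limit of 5%, 5.87% (multipara) under a hormone limit of 5%, and 28.6% and 38.3% of hormone-poor barcodes. With barcodes thinned to 1500 UMIs, and the members chosen again on the thinned counts (243 virgin and 217 multipara), venous-marked cells were 2.88% and 0.92% of members and pericyte-marked multipara cells 2.76%. The 55 higher and 52 lower genes became 199 and 186 without arterial, venous, lymphatic or cycling sets, which leaves 142 and 89 members, 185 and 235 with members thinned, 27 and 17 at 100 CPM, 1157 and 1918 with no CPM limit, and 11 and 21 at 2-fold. The lower count was 87 with members weighted equally and 24 without each gene's 3 highest members. The split was 67 and 41 with TMM and 72 and 39 with median-of-ratios scaling. Reversed log2 ratios under the hormone limit of 5% were 0.62 for Scg2, 0.68 for Iapp, 0.38 for Chga, 0.79 for Chgb, 0.0090 for Resp18 and 0.30 for Meg3. Without Scrublet calls those of Scg2, Iapp and Chga were 0.19, 0.52 and 0.27. They were 0.035, 0.29 and 0.051 with equal weights, 0.32, 0.46 and 0.015 with members thinned, and 0.15, 0.55 and 0.35 without the 3 highest members. Iapp was 0.056 under the mitochondrial limit of 5%. Ccl4 was 0.079 without members with other cell type markers. Without arterial, venous, lymphatic or cycling sets, Gbp4 was -0.019, Mgp -0.055, Ntn4 -0.13, H1f0 -0.042 and Rasd1 -1.96. Rasd1 was -0.044 without venous, lymphatic or other cell type sets and -0.23 with members thinned. The cause of these changes was not tested. Of 1595 gene ratios over 15 settings, 1370 moved by less than the counting interval. Over 16 settings, 96 list medians were counted as moved and 414 as the same. Leaving out the 3 highest members and leaving out the 6 marker sets were chosen after seeing the data.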

Other observations

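Cxcl10, an interferon-induced chemokine that attracts T cells, was at 213 UMIs in 18 virgin members and 50 UMIs in 16 multipara members, a log2 ratio of -2.15 (-2.62 to -1.70), with 83.1% of the virgin UMIs in 3 cells. Its relative Cxcl9 was at 52 UMIs in 5 virgin members and 0 in multipara members. Cxcl10 was therefore detected in nearly equal numbers of cells and differed in how many UMIs a few virgin cells held. Vegfc, a ligand of Flt4, was at 74 UMIs in 40 virgin members and 33 UMIs in 18 multipara members (-1.22, -1.86 to -0.61) and did not reach 50 CPM on average.

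Of 9 arterial genes at 50 CPM or more, 7 had a ratio above 0 and 2 below, with Mgp past 1.5-fold higher and Clu, a secreted chaperone, past 1.5-fold lower (159 and 104 CPM, -0.61). Sox17, an arterial transcription factor, was at 126 and 102 UMIs (-0.36). Gja4, a connexin, at 75.5 and 109 CPM (0.53), Efnb2, an ephrin of arterial endothelium, at 192 and 252 CPM (0.39), and Hey1, a Notch target, at 56.3 and 73.8 CPM (0.39), were each above 0 and under 1.5-fold. The arterial marker set was met by 43.8% of virgin and 60.4% of multipara members, and after thinning to 1500 UMIs by 10.9% (7.33 to 15.5) and 13.4% (9.14 to 18.6), which overlapped. The tip cell set was met by 47.0% (40.6 to 53.4) and 58.1% (51.2 to 64.7) of thinned members, and this set contains Igfbp3.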
